A study of Rattus norvegicus with 5 samples.

Results

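Bone morphogenetic proteins (BMPs) and transforming growth factor beta (TGF-beta) are secreted ligands of 1 protein family, and 10 genes that make, store, relay or restrain their signals are described here. The genes are the ligands Bmp2, Bmp4, Bmp6, Bmp7 and Tgfb1, the latent TGF-beta binding protein Ltbp1, the inhibitory SMADs Smad6 and Smad7, and the BMP target genes Id1 and Id3. They were chosen by name, with the lower values of Bmp2 and Smad6 in C-peptide-treated cells already known, so their differences between the groups are a description and carry no test. Each was taken as the brightest probe set, by its mean over the 5 arrays, that the platform annotation pairs with that symbol alone. Each of the 10 had 1 such probe set, and 9 of them were brighter than the median probe set, all but Id1. They are 10 of the 14506 genes named on the array.

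The arrays measured total RNA of proximal tubular cells, the absorptive epithelium of the first tubule segment, taken from kidneys of type I diabetic Sprague-Dawley rats. The cells of 3 animals were treated with C-peptide, the connecting peptide cut out of proinsulin, and those of 2 animals were left untreated, and the treatment step lasted 2 h. Diabetes was thus shared by both groups, and no non-diabetic cells were among the samples. The labels number the animals within each group and do not say whether a number stands for the same rat in both, and neither the rats' age nor the C-peptide dose is given in the sources used here.

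In this pathway a BMP or TGF-beta ligand brings together type I and type II receptor kinases, which phosphorylate receptor SMADs that enter the nucleus with Smad4. BMPs act mainly through Smad1, Smad5 and Smad9, and TGF-beta through Smad2 and Smad3. The inhibitory SMADs, Smad6 and Smad7, are induced by the same signals and feed back on the receptors. In the kidney TGF-beta is known as a driver of fibrosis, while Bmp7 is known to oppose it.

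In the deposited table the array medians were 60.1, 95.9 and 77.7 in C-peptide animals 1, 2 and 3. They were 92.2 and 84.4 in untreated animals 1 and 2. Intensities were therefore quantile-normalised between arrays, and the values below are these normalised intensities unless they are called deposited. Differences are C-peptide minus untreated on the log2(intensity + 16) scale, with the moderated standard error (SE) of limma. The median difference of all 29215 probe sets was 0.02, and 46.4% of them lay below 0. No probe set passed at adjusted p 0.05 in limma (0% called, smallest adjusted p = 0.0966), while 1840 were lower and 1477 higher at an unadjusted p under 0.05. The count of 0 depended on the setting, and reached 393 when probe sets dimmer than the median were left out before the test. With 5 arrays, precision is limited by their number.

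Bmp2 and Smad6 had the lowest log2 differences of the 10 genes on this scale. Bmp2, a BMP ligand, had intensities of 39.0, 61.0 and 42.3 in C-peptide animals 1, 2 and 3, against 147 and 152 in untreated animals 1 and 2. Smad6, the inhibitory SMAD that acts mainly on the BMP branch, had 192, 423 and 303 in the C-peptide animals, against 825 and 829 in the untreated animals. In both genes the highest C-peptide array was still under the lower untreated one, and the untreated arrays lay close together. The mean of Bmp2 was 47.4 ± 11.9 with C-peptide and 149 ± 3.59 without (SD, n = 3 and 2), a log2 difference of -1.40 ± 0.18 or 2.63-fold lower. The mean of Smad6 was 306 ± 115 with C-peptide and 827 ± 2.43 without, a log2 difference of -1.45 ± 0.29 or 2.74-fold lower. The deposited intensities, before normalisation, had the same order of groups. For Bmp2 they were 30.0, 71.5 and 39.5 with C-peptide, against 166 and 159 without, and for Smad6 they were 135, 478 and 295 with C-peptide, against 878 and 899 without. The C-peptide intensities of Bmp2 were all under 64, and its difference moved with the pseudocount. It was -1.66 at a pseudocount of 1 and -0.94 at 64, where Ltbp1 (-1.08) was lower than Bmp2.

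**Figure D1:**
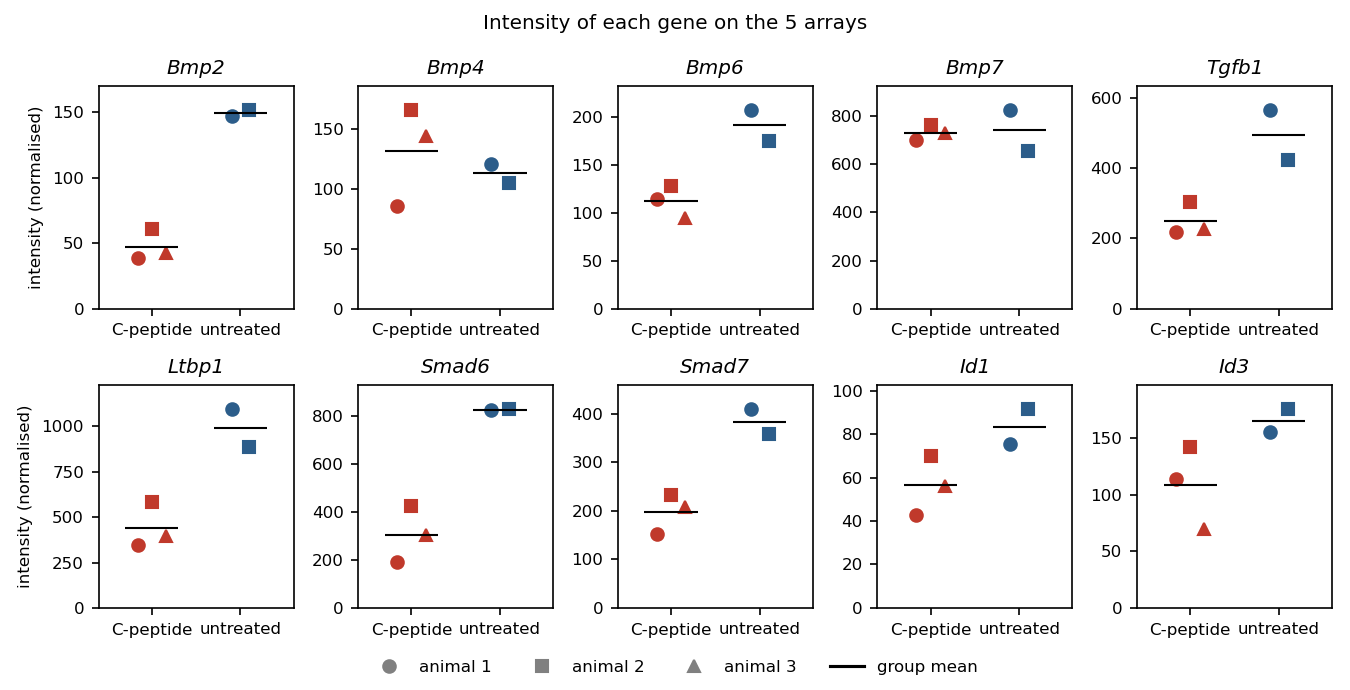
Normalised probe-set intensity (linear axes from 0) of each of the 10 genes, with 1 point for each animal's array (the symbol gives the animal number within its group) and a line at the group mean. In Bmp2, Smad6, Ltbp1, Tgfb1, Smad7, Bmp6, Id1 and Id3 all 3 C-peptide points lie below both untreated points, while the groups overlap in Bmp4 and Bmp7.

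Of the other ligands, Tgfb1 and Bmp6 were lower and Bmp4 and Bmp7 overlapped between the groups. Tgfb1, the TGF-beta isoform most often tied to renal fibrosis, had 219, 303 and 226 with C-peptide, against 566 and 424 without. Its log2 difference was -0.94 ± 0.20, or 1.92-fold lower. Bmp6, a ligand known for its control of hepcidin and iron in the liver, had 115, 128 and 94.6 with C-peptide, against 208 and 176 without. It differed by -0.70 ± 0.17, or 1.62-fold lower, and its groups did not overlap.

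Bmp4, which is close to Bmp2 in the family, did not share its pattern. Its intensities were 85.2, 166 and 144 with C-peptide, against 121 and 105 without, so that the untreated arrays lay inside the range of the C-peptide arrays. The log2 difference was 0.16 ± 0.25, and it was 0.41 without C-peptide animal 1 and -0.01 without C-peptide animal 2. Bmp7, the antifibrotic ligand of the kidney, had 701, 766 and 729 with C-peptide, against 827 and 657 without. Its difference of -0.01 ± 0.16 was smaller than the spread of either group, and it was 0.15 without untreated animal 1 and -0.17 without untreated animal 2. In the deposited values Bmp7 was at -0.21 and Bmp4 at -0.03, where the median of all probe sets was -0.13.

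Ltbp1, which binds latent TGF-beta and tethers it to the extracellular matrix, lay with Tgfb1 on the lower side. Its intensities were 345, 584 and 398 with C-peptide, against 1095 and 885 without. The means were 442 ± 125 and 990.1 ± 149 (SD, n = 3 and 2), a log2 difference of -1.16 ± 0.24 or 2.24-fold lower. The highest C-peptide array, that of animal 2, stood below the lower untreated array.

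Smad7, which blocks both branches by competing for the type I receptor and bringing ubiquitin ligases to it, was lower as Smad6 was. It had 152, 232 and 208 with C-peptide, against 409 and 357 without. The difference was -0.92 ± 0.20, or 1.89-fold lower, and the groups did not overlap. Smad7 is a textbook target of SMADs, so the 250 bases before its start, from the RefSeq promoter table of the rat build GRCr8 (chr18:71263258-71263507, plus strand), are shown with the GC-rich SMAD motif GGCGCC in capitals.

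Smad7: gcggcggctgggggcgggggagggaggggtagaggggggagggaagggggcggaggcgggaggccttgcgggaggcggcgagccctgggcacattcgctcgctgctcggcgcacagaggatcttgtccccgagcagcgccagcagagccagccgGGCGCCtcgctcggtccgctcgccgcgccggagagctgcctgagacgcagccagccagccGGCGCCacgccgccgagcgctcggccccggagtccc

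The motif occurs 2 times, with its first base 96 and 36 bases before the start. In windows of 250 bases before to 50 after the start, 7 of the 10 genes had an entry in the table. Bmp2, Bmp7 and Smad6 had none, so their promoters were not searched. Of the 7 genes with an entry, Smad7 and Ltbp1 held GGCGCC, which 11% of the 33469 promoters in the table hold on either strand. The SMAD palindrome GTCTAGAC was in 0 of the 7 windows and in 0.197% of all promoters. GGAGCC was in 3 of the 7, Id3, Ltbp1 and Bmp4, and in 27.9% of all, and CAGACA was in Bmp4 and in 21.1% of all. A match is only a match of letters, and these 4 motifs were searched after the values were known.

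Id1 and Id3, inhibitors of basic helix-loop-helix transcription factors and direct targets of BMP signalling, differed less. Id1 had 42.8, 70.2 and 56.3 with C-peptide, against 75.5 and 91.5 without. Id3 had 114, 142 and 69.7 with C-peptide, against 155 and 176 without. In both genes the groups did not overlap, but the highest C-peptide array came close to the lower untreated one. The log2 differences were -0.47 ± 0.19 for Id1 and -0.58 ± 0.26 for Id3, and that of Id3 was -0.33 without C-peptide animal 3. The difference of Id1 was -0.58 at a pseudocount of 1 and -0.30 at 64.

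**Figure D2:**
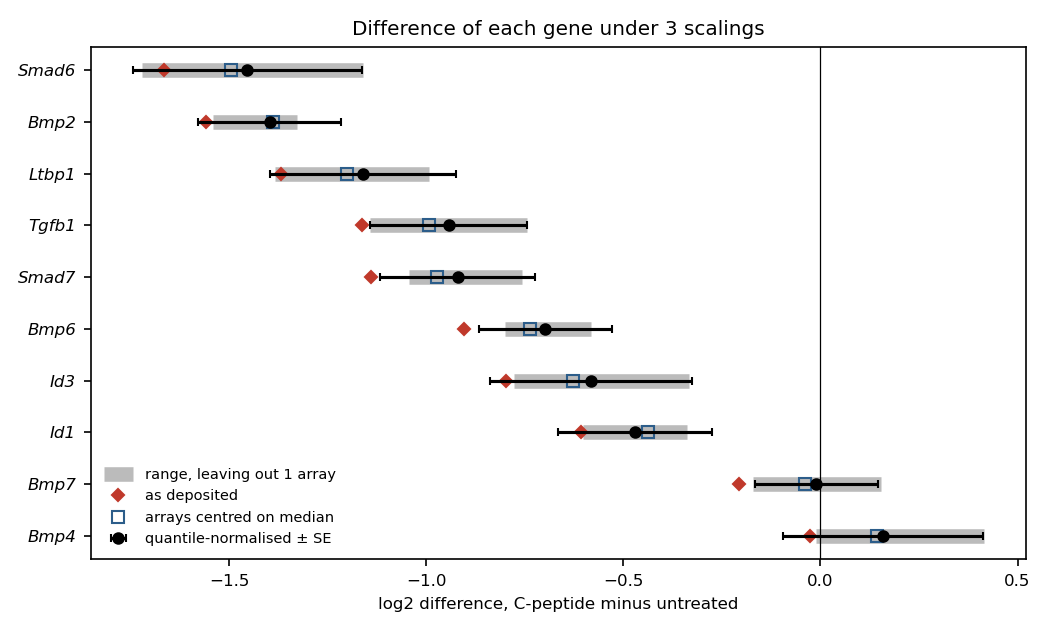
Log2 difference, C-peptide minus untreated, of each gene after quantile normalisation (black, with SE), in the deposited values (red diamonds) and after centring each array on its median (open squares). Grey bars give the range when 1 array at a time was left out. From Smad6 (-1.45) to Id1 (-0.47), 8 genes stay below 0 throughout, while Bmp7 and Bmp4 lie on both sides of 0.

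As a set, 9 of the 10 genes lay below 0, with a median log2 difference of -0.81, beside 0.02 for all probe sets. In 8 of the 10 every C-peptide array was below both untreated arrays, and in 0 above. Over all probe sets 13.8% were lower and 16.1% higher without overlap. These shares stand beside the count only, since the choice of genes used this contrast.

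The C-peptide animals differed among themselves in a common order. Animal 2 had the highest value of its group in all 10 genes, and the lowest was that of animal 1 in 8 and of animal 3 in 2. The deposited array medians of this group were also highest in animal 2 and lowest in animal 1. Relative to the mean of the untreated arrays, the median of the 10 genes was -0.93, -0.60 and -0.98 in C-peptide animals 1, 2 and 3. The spread within the C-peptide group reached 2.20 times between its highest and lowest array in Smad6 and 2.04 times in Id3, against 1.09 times in Bmp7.

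Markers of some other cell types were lower with C-peptide too. Endothelial cells line the blood vessels, which run close around the tubules in the kidney. Their 15 measured markers had medians of -1.17, -0.76 and -1.43 in C-peptide animals 1, 2 and 3 relative to the untreated mean. Animal 2 was thus again the nearest to the untreated arrays. It was also the nearest in immune cell markers (-0.59, -0.29 and -0.65) and proximal tubule markers (0.67, 0.49 and 0.78). In podocyte, stromal, thick limb and collecting duct markers it was not. The summed intensity of the endothelial markers was 8625 to 13249.9 in the C-peptide animals and 21000.4 to 23897 in the untreated animals. All 15 lay below 0, and 14 of them, all but Plvap, did so at an unadjusted p under 0.05, beside 6.3% of all probe sets, while none passed after adjustment (smallest adjusted p = 0.102 in limma). None of the 15 was at 0 on any array, and the defining genes Pecam1 and Cdh5 were measured at 674 to 1041 and 243 to 522 with C-peptide, against 1610 to 1942 and 693 to 903 without. The part of endothelial RNA in the differences of the 10 genes was not tested. In bulk RNA, fewer cells of a type and less RNA per cell cannot be told apart.

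Of the other marker lists, most markers of immune cells, podocytes and stroma also lay below 0, and those of the proximal tubule were higher. The 12 immune cell markers had a median of -0.48, with 11 below 0, and a summed intensity of 5449.7 to 7141 with C-peptide and 7900.4 to 9188 without. The 6 podocyte markers had a median of -0.50 and sums of 1536 to 2532 with C-peptide and 3889 to 4723 without, with 5 of the 6 below 0. The lowest were Podxl (-1.32) and Clic5 (-1.21), which glomerular endothelium also expresses. Synpo (-0.65) and Ptpro (-0.36) were also lower without overlap between the groups. The defining podocyte genes Nphs1 (0.11) and Wt1 (-0.17) overlapped between the groups, and both, like Ptpro, were dimmer than the median probe set. The 12 proximal tubule markers all lay above 0, with a median of 0.58 and sums of 24872 to 31835 with C-peptide and 17095 to 20412 without. All 12 were brighter than the median probe set, so the defining genes of the labelled cell type were present. The 8 stromal and smooth muscle markers had a median of -0.22, with 7 below 0. Without overlap between the groups 4 of them were lower and 1 higher, beside 13.8% and 16.1% of all probe sets. Medians were 0.23 for thick limb and distal tubule and 0.22 for collecting duct markers. No marker of any list passed after adjustment, and the part of these cell types in the differences of the 10 genes was not tested either.

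**Figure D3:**
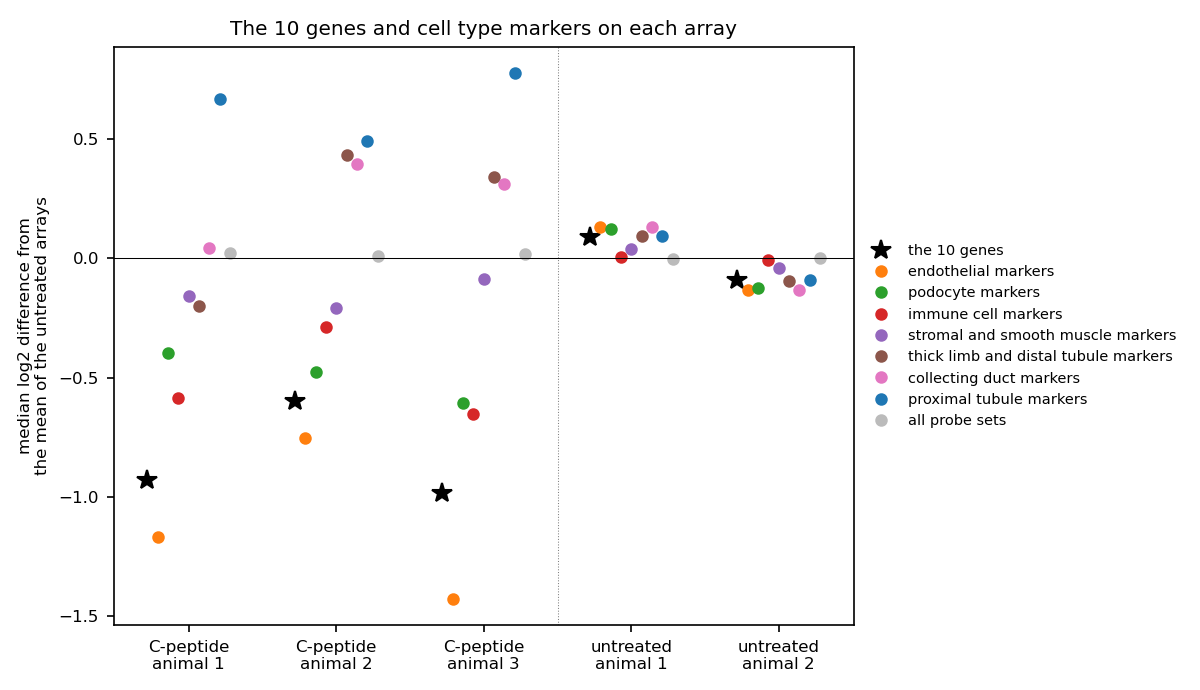
Median log2 difference of the 10 genes (stars) and of each list of cell type markers (circles) from the mean of the untreated arrays, for each of the 5 arrays on the horizontal axis. On the C-peptide arrays the stars lie at -0.93, -0.60 and -0.98, between the endothelial markers (-1.17, -0.76 and -1.43) and the other lists, and all probe sets lie near 0.

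The rest of the pathway was read from a list of 94 genes in 8 roles, of which 81 were measured. None passed at adjusted p 0.05 in limma, in either direction (smallest adjusted p = 0.112, for Nog). At an unadjusted p under 0.05, 7 were lower, or 8.64% beside 6.3% of all probe sets, and 4 were higher, or 4.94% beside 5.06%. Without overlap between the groups, 13 of the 81 were lower and 15 higher, beside 13.8% and 16.1% of all probe sets. The median log2 difference of the 81 was 0.05, beside 0.02 for all probe sets.

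Receptors held 4 of these 7 lower genes. Of 13 measured, 4 were lower and 1 higher at an unadjusted p under 0.05, beside 6.3% and 5.06% of all probe sets. Acvrl1, the type I receptor ALK1 for BMPs in endothelium, had 265, 411 and 297 with C-peptide, against 930.4 and 698 without, a log2 difference of -1.29 ± 0.22 (adjusted p = 0.120). Its co-receptor Eng, endoglin, was at -1.22 ± 0.32 (adjusted p = 0.218), and the TGF-beta co-receptor Tgfbr3, betaglycan, at -0.93 ± 0.24 (adjusted p = 0.225). The type II BMP receptor Bmpr2 was at -0.76 ± 0.24 and the type I receptor Bmpr1a at 0.51 ± 0.16, both named after their values were seen. The TGF-beta receptor Tgfbr1 was at 0.09 and the type I receptor Acvr1 at 0.11, likewise named afterwards. Acvrl1 and Eng are strongly expressed by endothelial cells, whose markers had a median of -1.14 on these arrays. The part of endothelial RNA in the differences of the receptors was not tested.

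Among extracellular and membrane inhibitors, Nog, noggin, which binds BMPs and keeps them from their receptors, was lower in all C-peptide arrays. It had 52.2, 66.4 and 54.6 with C-peptide, against 132 and 118 without, a log2 difference of -0.94 ± 0.15 (adjusted p = 0.112). The other 11 measured inhibitors did not reach an unadjusted p under 0.05, with Chrd, chordin, at 0.21 ± 0.14 and Fstl1 at -0.30 ± 0.18. Acvrl1 and Nog passed at adjusted p 0.05 when dim probe sets were left out (adjusted p = 0.0221 and 0.0217), where 2.19% of probe sets passed as lower. Both also passed among single-symbol probe sets (adjusted p = 0.0188 and 0.0192), where 1.76% passed as lower, and with a trended, robust variance prior (adjusted p = 0.0371 and 0.0430), where 0.585% did.

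The list of latency and activation, which also holds the receptor-associated Tgfbrap1, had 9 measured genes. Of these 7 lay above 0, and 2 were higher at an unadjusted p under 0.05, beside 5.06% of all probe sets. Itgb8 and Itgb6 encode the beta chains of integrins that free active TGF-beta from its latent complex. Itgb8 had 492, 334 and 564 with C-peptide, against 235 and 219 without, a log2 difference of 0.95 ± 0.22 (adjusted p = 0.192). Itgb6 was at 0.47 ± 0.17 (adjusted p = 0.366), and Thbs1, thrombospondin, which can also activate TGF-beta, at 0.24 ± 0.14. In Itgb8, Itgb6 and Thbs1, 3 of the 9 genes, every C-peptide array was above both untreated arrays. The same held for 16.1% of all probe sets. The median of the list was 0.22, on arrays where proximal tubule markers had a median of 0.58. Whether these values are linked was not tested.

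Of 16 other ligands, Gdf15, a distant family member that cells release under stress, was at 0.93 ± 0.26 (adjusted p = 0.255), with 281, 173 and 156 with C-peptide, against 112 and 81.8 without. Tgfb2 was at -0.56 ± 0.37 and the inhibin subunit Inhbb at 0.25 ± 0.31. In both the groups overlapped, and leaving out 1 array at a time moved Tgfb2 between -0.96 and -0.33.

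The SMADs that carry the signal lay nearer to 0. Of the 9 measured SMADs and nuclear partners, 0 reached an unadjusted p under 0.05, with Smad4 at -0.27 ± 0.16, Smad1 at -0.18 ± 0.18 and Zfyve9, which anchors SMADs at endosomes, at 0.17 ± 0.14. The same held for the 7 ligases and phosphatases, with Smurf2, a ubiquitin ligase that Smad7 recruits, at -0.45 ± 0.20, Wwp1 at 0.29 ± 0.14 and Usp15 at 0.27 ± 0.15.

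Other targets of the pathway lay on both sides of 0. Of the 9 other BMP targets 5 lay below 0. In limma Msx1 (-0.94 ± 0.17, adjusted p = 0.127) and Hey1 (-0.38 ± 0.14, adjusted p = 0.366) were lower at an unadjusted p under 0.05, beside 6.3% of all probe sets. Both were dim and named after their values were seen. Id2, of the same family as Id1 and Id3, was at -0.13 ± 0.15, with 770, 862 and 933 with C-peptide, against 979 and 897 without, and its groups overlapped. Id4 was at 0.08 ± 0.14 and Runx2 at 0.04 ± 0.14. Of the 6 TGF-beta targets measured, Fn1, fibronectin, was at -0.40 ± 0.18, Timp1 at -0.21 ± 0.21 and Tgfbi at 0.16 ± 0.15, and 0 reached an unadjusted p under 0.05.

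**Figure D4:**
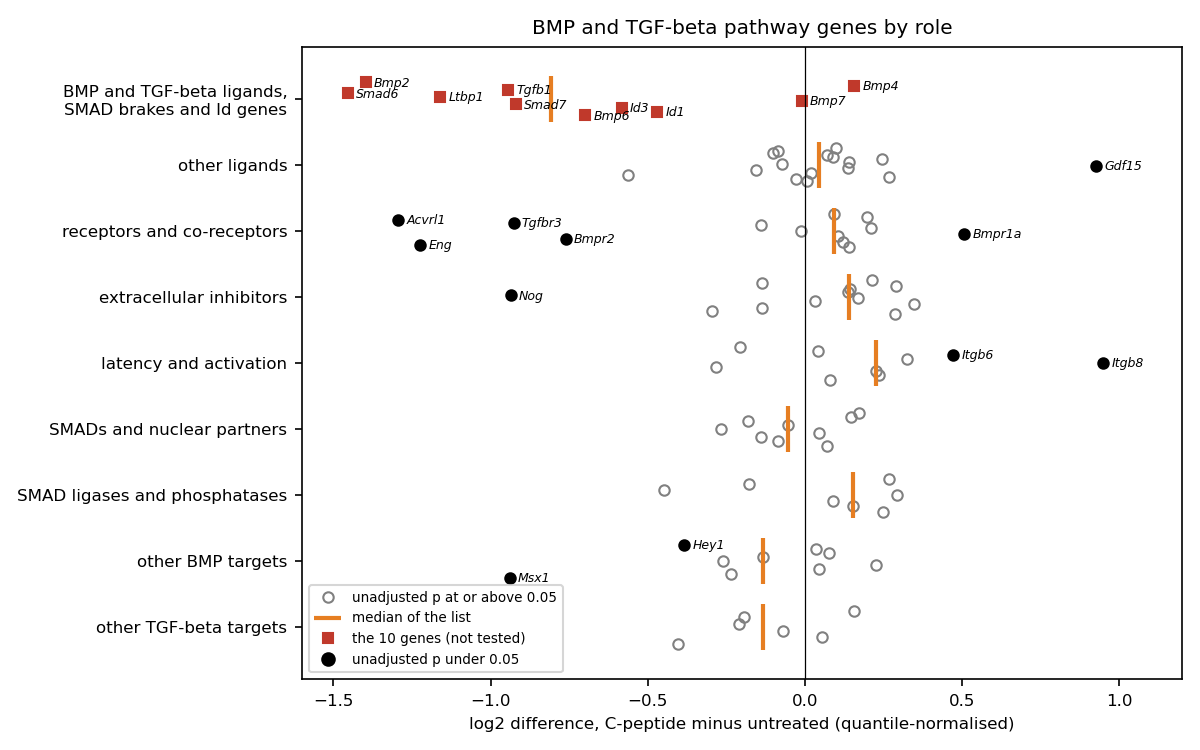
Log2 difference, C-peptide minus untreated after quantile normalisation, of the 10 genes (red squares, not tested) and of 81 other pathway genes by role (circles, filled and named where the unadjusted p was under 0.05), with the median of each row as an orange bar. The 10 genes have a median of -0.81, while the medians of the other roles lie between -0.13 and 0.22 and none of the 81 passed after adjustment.

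Genes with profiles closest to Bmp2 and Smad6 were found by the root mean square distance of log2 values, each gene centred on its own mean over the 5 arrays. For Bmp2 these were Lyve1, a hyaluronan receptor of lymphatic endothelium, LOC100361261, Hs3st1, which sulfates heparan chains, the angiopoietin receptor Tek and Dysf, dysferlin, at distances of 0.08 to 0.11. For Smad6 they were Rcsd1, Cd200, the ephrin Efnb2, Gimap4 and Plpp3, a lipid phosphate phosphatase, at 0.12 to 0.16. Of these 10 genes, Tek is in the endothelial marker list used here. Bmp2 was at rank 27 by closeness to Smad6 and Ltbp1 at rank 36 among the 14506 genes, at distances of 0.21 and 0.22. Smad7 was at rank 112, Tgfb1 at 174, Bmp6 at 517, Id1 at 576, Id3 at 960 and Bmp7 at 5456. Bmp4 was at rank 6423, at a distance of 0.80. All distances come from the same 5 arrays, and they describe likeness on these arrays only. The genes were chosen with the lower values of Bmp2 and Smad6 known, and the distance uses those values. The closeness of Bmp2 to Smad6 is therefore a description and no separate result.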

How the data were processed

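The members and gene lists were chosen with earlier results of these data known. The authors deposited linear probe-set intensities, and the submitters' processing notes name PLIER and Affymetrix Expression Console 1.1. The sources used here give neither the background correction nor the scaling. The table held 550 values of exactly 0, and its array medians differed. Intensities were quantile-normalised, taken to log2(intensity + 16) and fitted by group alone with limma 3.58.1 (lmFit, then eBayes) under R 4.3.3. Tests were two-sided and adjusted by Benjamini-Hochberg over 29215 probe sets. P-values measure only the spread between these 5 arrays.

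Symbols came from the platform annotation, updated through RefSeq (GRCr8), which held 15279 of the 15310 single-symbol probe sets; 323 had several symbols and 13582 none, and these were tested and not named. A gene was its brightest probe set. Of each role list, up to 3 genes brighter than the median with the smallest p were named, and for Bmp2 and Smad6 the 5 genes nearest in profile; the text marks names picked afterwards. Alternatives were the values as deposited, median centring, pseudocounts of 1 and 64, a filter on dim probe sets, single-symbol probe sets, a trended and robust prior, an animal block and leaving out each array. Listed genes without a single-symbol probe set were not analysed here.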

Additional observations from a re-analysis of the deposited data

How the results depend on the processing

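The number of probe sets past adjusted p 0.05 was 0 with quantile normalisation, 52 in the values as deposited and 29 after median centring. It was 1 at a pseudocount of 1 and 118 at a pseudocount of 64. It was 393 among probe sets above the median intensity, 329 among single-symbol probe sets and 207 with a trended and robust prior. The filtered sets test fewer probe sets, and the variance prior of limma was estimated anew on them. Why the counts differ was not tested. The other pathway genes past adjusted p 0.05 were 2 above the median intensity and 2 with the trended and robust prior (Acvrl1 and Nog), 4 among single-symbol probe sets (with Itgb8 and Msx1) and 0 elsewhere. In the values as deposited, 193 probe sets and 2 pathway genes were higher at an unadjusted p under 0.05, and at a pseudocount of 64, 7 pathway genes were. Leaving out 1 array at a time gave 1043 to 1917 lower and 722 to 1566 higher probe sets, with both lowest counts without untreated animal 1, and 3 to 11 lower and 2 to 5 higher pathway genes, 3 lower without untreated animal 1 and 11 without C-peptide animal 2. The median of the 10 genes stayed between -1.02 and -0.66 over these settings, and 8 of the 10 kept their sign, all but Bmp4 and Bmp7. In the values as deposited Zfyve9 (-0.052), Id4 (-0.15), Runx2 (-0.16) and Tgfbi (-0.037) changed sign. Leaving out 1 array at a time, Inhbb ranged from -0.037 to 0.50, Runx2 from -0.019 to 0.089 and Id4 from -0.034 to 0.19, none of them past the test. The same omissions moved 13 of the 24 other pathway genes checked this way by over 1.5 times, these 3 included, and among the others Tgfb2 ranged from -0.96 to -0.33, Smurf2 from -0.60 to -0.28, Fn1 from -0.49 to -0.25, Smad4 from -0.32 to -0.16, Timp1 from -0.39 to -0.035 and Smad1 from -0.33 to -0.032.

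With the animal number as a replicate block, 0 probe sets passed, 1588 were lower and 1080 higher at an unadjusted p under 0.05, 6 and 5 pathway genes were, and the median of the 10 genes was -0.74. Number 3 occurs only with C-peptide, so this fit takes the group difference from animals 1 and 2 alone. Leaving out C-peptide animal 3 likewise gave a median of -0.74. Only 2 numbers occur in both groups, and the correlation of deviations was -0.02 for animals 1 and 0.01 for animals 2, so the numbers were not taken as pairs. Averaging a gene's probe sets was not run, since the 10 genes have 1 each.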
